A study of Mus musculus with 35 samples.

Results

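The comparison described here sets hippocampi of 3xTgAD mice that also carry 1 disrupted copy of Polb against hippocampi of 3xTgAD mice with no such allele, both given vehicle only. Members were chosen by column title and not by any measured value: 7 vehicle mice labelled 3xTgADPolB and 8 vehicle mice labelled 3xTgAD, out of 35 mice in all, each with the same 760 genes. The 3xTgADPolB vehicle mice (called ADPolB_veh here, 4 males and 3 females) were heterozygous for Polbtm1Rsky and carried Tg(APPSwe,tauP301)L1Lfa. The 3xTgAD vehicle mice (AD_veh, 4 males and 4 females) carried Tg(APPSwe,tauP301)L1Lfa and no disrupted Polb allele. The same genotype contrast was available in mice given Urolithin A, which gut bacteria make from plant ellagitannins, gavaged at 200 mg/kg each day, with 6 3xTgADPolB mice (ADPolB_UA, 2 males and 4 females) and 7 3xTgAD mice (AD_UA, 4 males and 3 females). Wild type vehicle mice (WT_veh, 7 animals, 3 males and 4 females) carried neither. All 35 animals were on the C57BL6/J background, were 18 months old and had been treated for 5 months, and each gave about 5 mg of hippocampus for RNA.

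DNA polymerase beta, the product of Polb, is the main gap-filling enzyme of base excision repair, the pathway that replaces single oxidised, alkylated or deaminated bases. In brain, where most neurons no longer divide, base excision repair carries much of the load of oxidative DNA damage in nuclear and mitochondrial DNA. The 3xTgAD line is a model of Alzheimer disease that expresses mutant human amyloid precursor protein and tau, so all 15 vehicle animals compared here share the amyloid and tau transgenes. The heterozygous mice keep 1 working copy of Polb, so the contrast is one of gene dose and not of loss. Polb itself was not analysed here, so the labelled genotype was not checked against the level of its own transcript. None of the base excision repair genes looked for (the glycosylases, Apex1, Xrcc1, the ligases and Parp1 among them) was among the 760 genes. The panel therefore reads glia, synapses, mitochondria and protein turnover rather than the repair pathway.

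Levels are nCounter values, obtained by counting colour-coded probes bound to each RNA, on the log2 scale as deposited, so a difference of 1 is a factor of 2. They ran from 0.98 to 15.81 over the table. The median level of a mouse over the 760 genes averaged 8.92 ± 0.12 in ADPolB_veh mice and 8.85 ± 0.13 in AD_veh mice (SD, n = 7 and 8). That difference of 0.07 was within the spread between mice (exact permutation test over 6435 arrangements, two-sided, p = 0.270). Of the list of hippocampal subfield markers looked for, 1 gene was measured, Bok, at 6.02 to 8.90 in the 15 vehicle transgenic mice, so the tissue label had little to be checked against. Values of levels and differences below are log2 unless a fold is named, and errors of differences are standard errors (SE).

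One animal stood apart from the other 14. The male AD_veh 2 had the highest value of the 15 mice in 239 genes and the lowest in 145, and its mean correlation with the other 14 was 0.894, against 0.953 to 0.971 for each of those. Its myelin basic protein transcript, Mbp, was the highest of the 15, at 14.20. It also had 9.85 for Adora2a, the adenosine receptor typical of striatal neurons, while the other vehicle transgenic mice had 0.98 to 4.79. The remaining striatal markers measured were high in it as well, with Pde1b at 11.27 and Ptpn5 at 11.64. Bok, the hippocampal marker named above, was lowest in this mouse, at 6.02, against 7.23 to 8.90 in the other 14. The part of dissection in this profile was not tested. Its levels were the highest of the AD_veh group for the myelin and general microglia lists and the lowest for the presynaptic list, and the results that moved with it are given both ways. In the Urolithin A groups ADPolB_UA 6, AD_UA 3 and AD_UA 8 had high Adora2a too, at 6.07, 8.60 and 7.13, against 2.35 to 3.98 in the other 5 ADPolB_UA mice and 2.59 to 3.88 in the other 5 AD_UA mice. Wild type vehicle mice had 2.89 to 4.11.

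The C1q subunits followed each other closely from mouse to mouse, and their promoters are shown because the 3 genes varied together. C1qa, C1qb and C1qc encode the 3 chains of complement component C1q and are made in brain mainly by microglia. Pearson's r over the 15 mice was 0.995 between C1qa and C1qb, 0.994 between C1qa and C1qc and 0.996 between C1qb and C1qc, points that share the mice and their microglial content. The 2 sequences below run 5′ to 3′ on the strand of the gene, the minus strand, from RefSeq on GRCm38.p6, at chr4:136886151-136886450 for C1qb and chr4:136892865-136893164 for C1qc, and hold 250 bases before and 50 after the annotated start.
C1qb: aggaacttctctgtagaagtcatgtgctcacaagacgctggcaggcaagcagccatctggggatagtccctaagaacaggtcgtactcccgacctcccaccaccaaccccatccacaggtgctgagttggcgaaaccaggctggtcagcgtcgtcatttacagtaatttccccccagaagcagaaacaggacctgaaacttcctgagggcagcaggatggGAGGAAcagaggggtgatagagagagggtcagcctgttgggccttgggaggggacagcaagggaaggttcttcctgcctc
C1qc: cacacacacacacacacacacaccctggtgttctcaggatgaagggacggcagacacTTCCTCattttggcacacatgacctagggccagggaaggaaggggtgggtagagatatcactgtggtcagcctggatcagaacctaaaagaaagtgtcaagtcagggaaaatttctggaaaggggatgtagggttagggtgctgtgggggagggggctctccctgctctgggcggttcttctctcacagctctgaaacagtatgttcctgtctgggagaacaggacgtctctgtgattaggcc
Capitals mark GAGGAA, the core of the PU.1-type motif of myeloid cells, or its reverse complement TTCCTC. C1qb held it once, on the strand of the gene with 24 bases between it and the start, and C1qc held it once, on the opposite strand with 187 bases between. The motif, searched on both strands, stood in 28.3% of 32851 mouse promoters of the same length (9289 promoters), so its presence is a description and no sign of binding.

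No gene differed between ADPolB_veh and AD_veh mice after correction for the 760 genes tested (0 of 760, 0%, limma with group and sex as terms, Benjamini-Hochberg adjustment, threshold 0.05). The smallest adjusted p was 0.236, for Fam171a1, and the next was 0.873. At an unadjusted p under 0.05 there were 33 genes (4.34%), fewer than the 38 that chance alone would place there, with 24 higher (3.16%) and 9 lower (1.18%) in ADPolB_veh mice. In no gene were all 7 ADPolB_veh values apart from all 8 AD_veh values (0 of 760, 0%). The mean difference was above 0 in 456 genes (60%) and its median over all genes was 0.04. After each mouse was centred on its own median the split turned, with 321 genes above 0 and 439 below, and 17 higher and 22 lower at an unadjusted p under 0.05. The 95% confidence interval lay within 1 on either side of 0 for 716 genes and within 0.5 for 487 genes. The median distance from the estimate to either end was 0.28. These intervals are not adjusted for the number of genes and do not give the size that could have been called. Of the 4 genes that differed by more than 1, Cd74 and Enpp2 among them, none was called. Without AD_veh 2, still no gene passed correction (smallest adjusted p = 0.089, Cd2ap), while 114 genes stood at an unadjusted p under 0.05 (15%), 92 higher (12.1%) and 22 lower (2.89%), with 28 shared with the 33 above. In a fit that weights each mouse by how well it fits its group, 209 genes were called, 188 higher and 21 lower, with a weight of 0.107 for AD_veh 2. Other single mice moved the 33 as well, to 15 without ADPolB_veh 6, 18 without ADPolB_veh 7, 22 without ADPolB_veh 4 or AD_veh 3 and 65 without ADPolB_veh 2, and none of these fits called a gene.

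**Figure D1:**
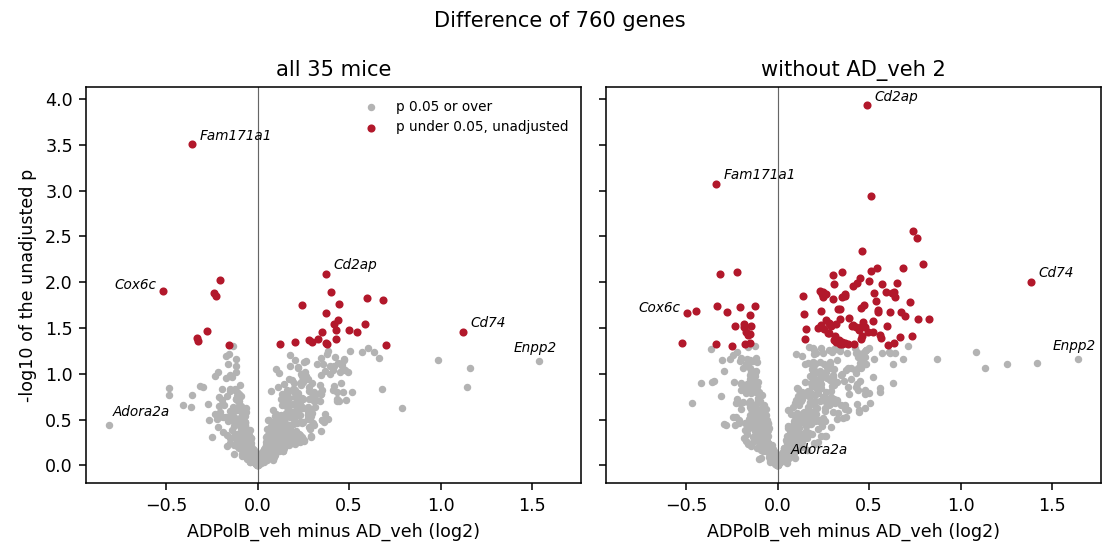
Each point is 1 of 760 genes, with the log2 difference, ADPolB_veh minus AD_veh, across and −log10 of the unadjusted p upward, for all 35 mice (left) and without AD_veh 2 (right). Red points, at p under 0.05, number 33 on the left and 114 on the right, where most lie on the higher side.

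Fam171a1, which encodes a single-pass membrane protein, had the smallest p of the table. Its lowest, median and highest levels were 8.30, 8.64 and 8.79 in ADPolB_veh mice, against 8.73, 8.95 and 9.09 in AD_veh mice. The groups met only at their edges, with ADPolB_veh 6 the one heterozygous animal that reached into the AD_veh range. The difference was -0.36 (SE 0.09, 95% interval -0.54 to -0.18, 0.780-fold, adjusted p = 0.236, limma), and it was -0.34 without AD_veh 2 (adjusted p = 0.289). Leaving out each mouse in turn gave -0.40 to -0.32, with adjusted p from 0.114 to 0.856. The fit with sample weights gave -0.28 and an adjusted p of 0.0119. A limma fit of only the 15 mice gave -0.36 and an adjusted p of 0.937, and Fam171a1 then no longer had the smallest p. With the replicate number as a block the difference was -0.36 (adjusted p = 0.997, limma). WT_veh mice averaged 8.91 ± 0.11 (SD, n = 7), near the AD_veh mean of 8.92 ± 0.15. In Urolithin A mice the levels were 8.63 ± 0.18 in ADPolB_UA and 8.58 ± 0.18 in AD_UA (SD, n = 6 and 7), a difference of 0.04 (SE 0.10). The difference between the vehicle and Urolithin A contrasts was -0.40 (SE 0.13) and did not pass correction (adjusted p = 0.875).

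Cd2ap encodes an adaptor that links membrane receptors to actin and lies at a human Alzheimer disease risk locus. Levels were 7.38, 7.69 and 8.05 (lowest, median, highest) in ADPolB_veh mice and 6.98, 7.23 and 8.18 in AD_veh mice. The AD_veh maximum of 8.18 was AD_veh 2, and the other 7 AD_veh mice reached no higher than 7.39, so that without it a single heterozygous animal, at 7.38, lay within their range. The difference was 0.37 (SE 0.13, 1.29-fold, adjusted p = 0.873), and without AD_veh 2 it was 0.49 (1.40-fold, adjusted p = 0.089).

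The other lower genes among the 25 smallest p-values differed by -0.52 to -0.21. Trappc4, a subunit of the TRAPP vesicle tethering complex, had levels of 8.23, 8.32 and 8.57 in ADPolB_veh mice and 8.44, 8.56 and 8.77 in AD_veh mice (difference -0.21, SE 0.07). Cox6c, a subunit of cytochrome c oxidase in the mitochondrial respiratory chain, had 3.30, 4.23 and 4.88 in ADPolB_veh mice and 3.99, 4.67 and 5.44 in AD_veh mice (-0.52, SE 0.19). Cox6c was close to the bottom of the table, with only 0.789% of genes having a lower mean, and its difference was 0.03 in females and -0.97 in males (adjusted p = 0.472 for the difference between sexes). Ppp1r2, an inhibitor of protein phosphatase 1, had a difference of -0.24 that was -0.15 without AD_veh 2. St8sia3, a sialyltransferase of gangliosides and glycoproteins, had -0.23 with all mice and -0.16 without that animal. Gnb5, the beta subunit of neuronal RGS complexes, had -0.28 and then -0.17, and its AD_veh maximum of 10.91 was again AD_veh 2. Sat1, which acetylates spermidine and spermine, had -0.33 with all mice and -0.34 without it.

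The higher genes among the 25 smallest p-values had differences of 0.24 to 1.12. Wls, the carrier that brings Wnt proteins to the cell surface, had levels of 9.03, 9.42 and 9.94 in ADPolB_veh mice and 8.36, 9.03 and 9.63 in AD_veh mice (0.40, SE 0.15, 1.32-fold). Cald1, the actin-binding protein caldesmon, had 7.24, 7.79 and 8.47 in ADPolB_veh mice and 6.62, 7.30 and 7.76 in AD_veh mice (0.60, SE 0.23, 1.51-fold). Antxr1, a matrix-binding receptor also used by anthrax toxin, had 6.39, 7.18 and 8.15 in ADPolB_veh mice and 6.12, 6.38 and 7.28 in AD_veh mice (0.69, SE 0.27, 1.61-fold). The groups overlapped in each of these genes, and AD_veh 2 gave the AD_veh maximum for Wls and Antxr1. Tgfbr2, a TGF-beta receptor, differed by 0.58 (SE 0.26), and Acvrl1, an endothelial receptor for ligands of the bone morphogenetic protein family, by 0.43 (SE 0.19). Anxa2, a membrane-binding annexin, differed by 0.54 (SE 0.25), Pecam1, an adhesion molecule of endothelium, by 0.33 (SE 0.15), and Yap1, the transcriptional coactivator of the Hippo pathway, by 0.28 (SE 0.13). Sox9, a transcription factor of astrocytes in adult brain, differed by 0.37 (SE 0.15). Fxyd5, a modulator of the sodium pump, differed by 0.44, Zfp36l1, which promotes decay of AU-rich mRNAs, by 0.43, and Naa80, the acetyltransferase of actin, by 0.42. Pbxip1, Tbc1d9 and Ogfod3 differed by 0.50, 0.44 and 0.35. The adjusted p was 0.873 for each of the 25 genes with the smallest p other than Fam171a1.

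Cd74, the invariant chain of MHC class II and a marker of antigen-presenting cells, was the gene with the largest difference among the 25 smallest p-values. It had 5.62, 8.09 and 9.27 in ADPolB_veh mice and 5.55, 6.49 and 7.84 in AD_veh mice. Both groups began at the same low level, and 5 of the 7 heterozygous animals lay at 7.62 or above. The difference was 1.12 (SE 0.51, 2.18-fold, adjusted p = 0.873) and it was 1.39 without AD_veh 2 (adjusted p = 0.299). WT_veh mice averaged 7.44 ± 1.49 (SD, n = 7), so animals with no transgene covered the same range.

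**Figure D2:**
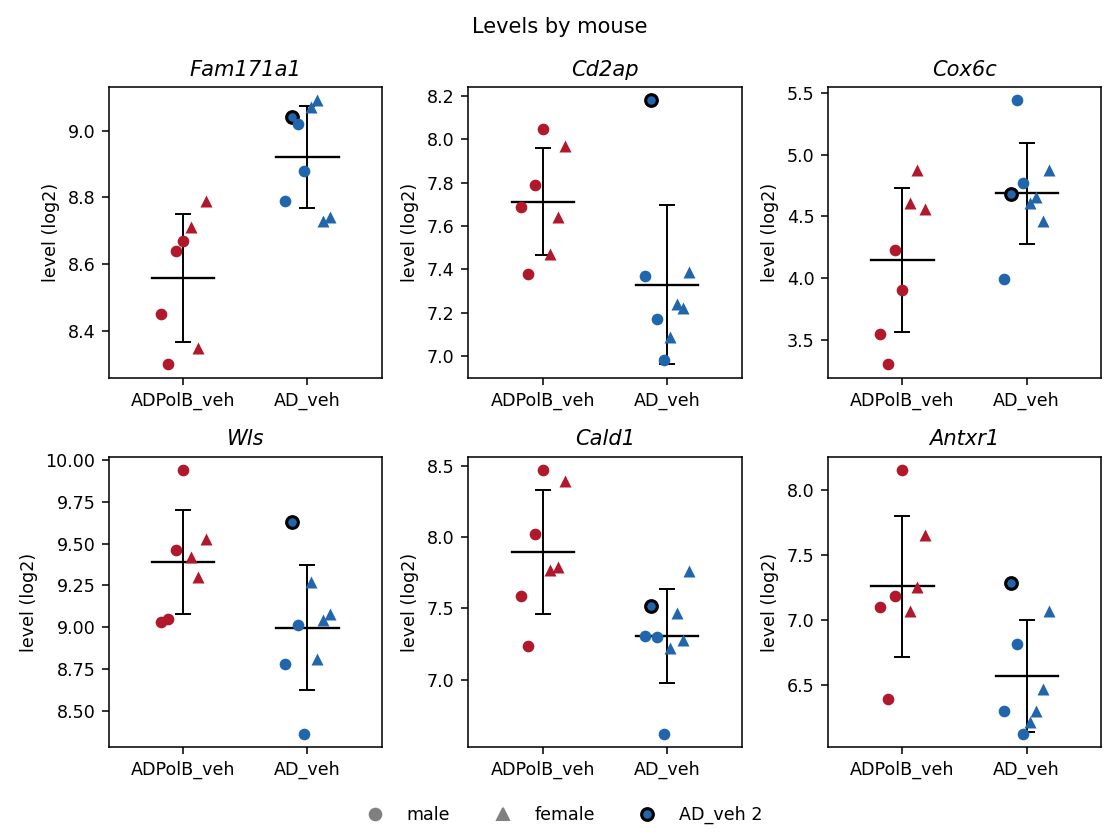
Levels (log2) of 6 of the genes with the smallest p, with 1 point per mouse, ADPolB_veh left and AD_veh right, circles for males, triangles for females, and the mean with SD as bars. Fam171a1 and Cox6c had the lower mean in ADPolB_veh mice and the other 4 genes the higher, and AD_veh 2 (ringed) was the AD_veh maximum for Cd2ap, at 8.18, and for Wls and Antxr1.

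The largest differences of all belonged to a few genes that vary widely between mice. Enpp2, the secreted lysophospholipase autotaxin, is expressed in oligodendrocytes and very highly in choroid plexus. It had 10.17, 12.07 and 14.63 in ADPolB_veh mice and 9.84, 10.39 and 12.33 in AD_veh mice, a difference of 1.54 (SE 0.83, 2.90-fold, 95% interval -0.15 to 3.23). Its SD was 1.69 in ADPolB_veh mice, 0.85 in AD_veh mice and 2.10 in WT_veh mice. Col9a3, a collagen chain, differed by 1.16 (SE 0.66) and Slc4a2, an anion exchanger, by 0.98 (SE 0.53). These 3 genes followed each other from mouse to mouse, with Pearson's r of 0.979, 0.981 and 0.982 over the 15 animals. The choroid plexus list held 0 measured markers, and the part of that tissue in these values was not tested. A2m, the protease inhibitor alpha-2-macroglobulin, differed by 1.15 (SE 0.76).

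Of the 5 most negative differences, all but that of Cox6c were much nearer 0 without 1 animal. Adora2a had a difference of -0.81 (SE 0.88) with all mice and 0.05 without AD_veh 2. Pde1c, a calcium-dependent phosphodiesterase, had -0.49 and then -0.14, and Rgs4, a regulator of G protein signalling in neurons, had -0.41 and then -0.16. Trem2, the microglial lipid receptor, had a difference of -0.48 (SE 0.35), and -0.02 without the male ADPolB_veh 1. That mouse stood at 1.32, while the other 6 ADPolB_veh mice lay at 4.29 to 5.12, and it had the lowest value of the 15 in 124 genes. App, which encodes the amyloid precursor, differed by -0.01 (SE 0.07), and Mapt, which encodes tau, by -0.12 (SE 0.12). The sources used here do not say whether these probes read the human transgenes.

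The gene lists below are described by counts and medians, beside the median of 0.04 and the 60% above 0 over all genes. In a piece of tissue, fewer cells of a type and less RNA per cell cannot be told apart. Of 30 lists, 23 had at least 3 measured members and together held 199 genes. Some genes are in several lists, so the counts of different lists are not separate results. Cd63 is in the disease-associated microglia and lysosomal lists, Lamp2 in the autophagy and lysosomal lists and Grn in the lysosomal and Alzheimer risk lists. Apoe is in the astrocyte and Alzheimer risk lists, Daam2 in the myelin and Wnt lists and Mapt in the axonal and amyloid lists.

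Myelin genes lay above 0 in 36 of 39 cases with a median difference of 0.19, and none of the 39 was at an unadjusted p under 0.05. Compact myelin and sheath proteins were above 0 in 14 of 15, membrane and cytoskeleton proteins of oligodendrocytes in 20 of 20, and transcription factors of the lineage in 2 of 4. The mean level of the list ran from 8.84 to 10.36 in ADPolB_veh mice and from 8.86 to 10.76 in AD_veh mice, and the AD_veh maximum was AD_veh 2. Without that mouse the median was 0.37, with 38 of 39 above 0 and 1 of 39 at an unadjusted p under 0.05, against 15% of all genes, and it was 0.09 without ADPolB_veh 7. After centring it was 0.11, with 32 of 39 above 0. In females 38 of 39 myelin genes were above 0 (median 0.50), and in males, AD_veh 2 among them, 8 of 39 (median -0.165). For the difference between sexes, 0 of 39 were at an unadjusted p under 0.05 (limma). Tmem63a, an ion channel of oligodendrocytes, had 7.89, 8.63 and 9.17 in ADPolB_veh mice and 7.25, 7.84 and 9.75 in AD_veh mice (0.37, SE 0.33). Padi2, the peptidylarginine deiminase that modifies myelin basic protein, differed by 0.29 (SE 0.26), and Daam2, a Wnt pathway formin of oligodendrocytes, by 0.22 (SE 0.19).

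Complement genes were above 0 in 4 of 4 cases, with a median of 0.49. Serping1, the C1 inhibitor, had 6.68, 7.66 and 8.42 in ADPolB_veh mice and 6.23, 6.88 and 8.07 in AD_veh mice. Its difference was 0.70 (SE 0.34, 1.63-fold, adjusted p = 0.873), the only complement gene at an unadjusted p under 0.05. C1qa had 9.10, 10.52 and 12.01 in ADPolB_veh mice and 9.23, 9.98 and 11.76 in AD_veh mice, a difference of 0.51 (SE 0.36, 95% interval -0.21 to 1.24). The groups spanned nearly the same range, and C1qb and C1qc, whose promoters are printed above, differed by 0.43 (SE 0.32) and 0.47 (SE 0.32). Without AD_veh 2 the median of the list was 0.70, and 4 of 4 were at an unadjusted p under 0.05, against 15% of all genes. It was 0.31 without AD_veh 5.

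Genes of disease-associated microglia were above 0 in 8 of 9 cases (median 0.23), Trem2 being the exception, and general microglial genes in 7 of 7 (median 0.29). None of these 16 was at an unadjusted p under 0.05. B2m, the light chain of MHC class I, had 11.37, 12.57 and 13.83 in ADPolB_veh mice and 11.46, 12.02 and 13.39 in AD_veh mice (0.49, SE 0.29). Csf1, the growth factor of microglia and macrophages, differed by 0.45 (SE 0.26), Cd63, a tetraspanin of late endosomes, by 0.45 (SE 0.29) and Apoe, the main lipid carrier of brain, by 0.23 (SE 0.21). Among the general genes, Cyba, a subunit of NADPH oxidase, differed by 0.45 (SE 0.34), Arpc1b, an Arp2/3 subunit, by 0.43 (SE 0.30), Laptm5, a lysosomal membrane protein of leukocytes, by 0.29 (SE 0.27) and Ctss, the lysosomal protease cathepsin S, by 0.31 (SE 0.33). Without AD_veh 2 the medians were 0.35 and 0.46, and without ADPolB_veh 6 they were 0.12 and 0.14. In the fit without AD_veh 2, 3 of 9 and 1 of 7 were at an unadjusted p under 0.05 (limma). All of these were on the higher side, against 12.1% of all genes. The general list had 0.52 without ADPolB_veh 1. Of cytokine receptors, Tnfrsf1a, the receptor for tumour necrosis factor, differed by 0.50 (SE 0.25) and Tgfbr1 by 0.28 (SE 0.21), so with Tgfbr2 3 of 3 were above 0 (median 0.50, and 0.64 without AD_veh 2). On the higher side, 1 of 3 was at an unadjusted p under 0.05 with all mice, against 3.16% of all genes (limma). Without AD_veh 2 it was 3 of 3, against 12.1%.

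Endothelial genes were above 0 in 7 of 7 cases, with a median of 0.31, and 2 of 7 were at an unadjusted p under 0.05 on the higher side, against 3.16% of all genes. These 2 were Tgfbr2 and Pecam1, and Tgfbr2 is counted with the cytokine receptors above and the TGF-beta family below as well. Without AD_veh 2 the median of the endothelial list was 0.41, with 3 of 7 at an unadjusted p under 0.05 on the higher side, against 12.1% of all genes. It was 0.16 without AD_veh 7 and 0.16 after quantile normalization. Flt1, a receptor for vascular endothelial growth factor, had 6.54, 7.58 and 7.95 in ADPolB_veh mice and 6.67, 6.98 and 7.95 in AD_veh mice (0.36, SE 0.20). Cldn5, the tight junction protein of the blood-brain barrier, differed by 0.31 (SE 0.23). The 2 groups reached the same maximum for Flt1. Astrocyte genes were split, with 5 of 7 above 0 and a median of 0.04, which was -0.04 after centring and 0.12 without AD_veh 2. Gja1, the gap junction protein connexin 43 of astrocytes, differed by -0.10 (SE 0.10) and Nfia, a glial transcription factor, by 0.16 (SE 0.13).

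Neuronal lists lay near or below 0. Presynaptic genes were above 0 in 10 of 30 cases with a median of -0.04, and none was at an unadjusted p under 0.05. AD_veh 2 had the lowest mean level of that list among the AD_veh mice, at 10.40, against 10.76 to 11.23 in ADPolB_veh mice, and without it the median was -0.13, with 4 of 30 above 0. After centring the median was -0.11, with 3 of 30 above 0, and without AD_veh 1 it was 0.01. Rab3a, a small GTPase of synaptic vesicles, had 12.41, 12.66 and 13.09 in ADPolB_veh mice and 12.22, 12.99 and 13.14 in AD_veh mice (-0.21, SE 0.12). Without AD_veh 2 that difference was -0.31 (adjusted p = 0.299). Cplx1, a regulator of vesicle fusion, differed by -0.21 (SE 0.15) and Rab3c by -0.27 (SE 0.21). GABA-related genes were above 0 in 1 of 6 cases (median -0.06), excitatory postsynaptic genes in 3 of 5 (median 0.04, but -0.04 after centring and -0.05 without AD_veh 2), activity-dependent genes in 1 of 3 (median -0.05) and axonal genes in 0 of 3 (median -0.05). Without AD_veh 2 the GABA, activity-dependent and axonal medians were -0.06, -0.07 and -0.13, and after centring they were -0.14, -0.12 and -0.13. The activity-dependent median was 0.06 without ADPolB_veh 5. The 3 striatal markers were all below 0 (median -0.25) and all above 0 without AD_veh 2 (median 0.05).

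The 3 measured genes of the DNA repair and damage list were all below 0, with a median of -0.09 that was -0.07 without AD_veh 2. Of these, Bcl2 and Bcl2l1, inhibitors of apoptosis and not repair enzymes, differed by -0.15 (SE 0.15) and -0.08 (SE 0.07). Bcl2 had 5.41, 6.16 and 6.70 in ADPolB_veh mice and 6.01, 6.36 and 6.95 in AD_veh mice. The ranges of both genes overlapped between the groups, and none of the 3 was at an unadjusted p under 0.05.

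Mitochondrial genes showed small differences. Oxidative phosphorylation genes were above 0 in 1 of 9 cases with a median of -0.06, and Cox6c was the one gene at an unadjusted p under 0.05. The median was -0.10 without AD_veh 2, -0.14 after centring and -0.01 without AD_veh 8. Atp5a1, the alpha subunit of ATP synthase, had 12.94, 13.09 and 13.22 in ADPolB_veh mice and 13, 13.15 and 13.46 in AD_veh mice (-0.10, SE 0.06). Atp5j2, another ATP synthase subunit, differed by -0.15 (SE 0.10), and Ndufab1, of complex I, was the gene above 0, by 0.17 (SE 0.15). Metabolic and dynamics genes were above 0 in 3 of 5 cases (median 0.08, but 0.00 after centring and -0.05 after quantile normalization), with Got1, an aspartate aminotransferase, at -0.14 (SE 0.09), Idh2 of mitochondria at 0.16 (SE 0.17) and Mfn1, a mitofusin of the outer membrane, at 0.08 (SE 0.09). Autophagy genes were above 0 in 2 of 4, with a median of 0.11 that was 0.18 without AD_veh 2, 0.05 without ADPolB_veh 6, 0.04 after centring and 0.03 after quantile normalization. Lamp2, a lysosomal membrane protein, differed by 0.33 (SE 0.18), Tfeb, the transcription factor of lysosomal genes, by 0.27 (SE 0.22) and Gabarapl1, of the autophagosome, by -0.09 (SE 0.08).

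Lysosomal genes were above 0 in 11 of 12 cases with a median of 0.18, and 1 of the 12 was at an unadjusted p under 0.05, against 4.34% of all genes. The median was 0.25 without AD_veh 2, 0.11 without ADPolB_veh 6 and 0.10 after centring, with 9 of 12 above 0. Grn, progranulin, had 8.33, 9.06 and 9.96 in ADPolB_veh mice and 8.54, 8.72 and 9.83 in AD_veh mice (0.23, SE 0.17). Proteasome and folding genes were above 0 in 7 of 26 (median -0.06), with Dnaja2, a co-chaperone of Hsp70, at -0.10 (SE 0.07) and Psmg1, a proteasome assembly chaperone, at -0.07 (SE 0.06). The proteasome and folding median was -0.08 without AD_veh 2, with 4 of 26 above 0, and -0.13 after centring. Amyloid and tau pathway genes were above 0 in 2 of 7 (median -0.02), with 3 of 7 and a median of -0.11 without AD_veh 2, and with 0 of 7 and a median of -0.10 after centring. Genes at Alzheimer risk loci were above 0 in 6 of 13 (median -0.01), with Cd2ap the one at an unadjusted p under 0.05. The sign of that median turned without AD_veh 2, to 0.06 with 9 of 13 above 0, and it was -0.08 after centring. Wnt genes were above 0 in 3 of 4 (median 0.18), led by Wls, with a median of 0.22 without AD_veh 2 and 0.10 after centring, while Lgr5, a receptor for R-spondins, differed by -0.19 (SE 0.24). Endosome and trafficking genes were split 5 and 5 (median -0.01, 0.02 without AD_veh 2 and -0.09 after centring), with Tbc1d9 on the higher side and Trappc4 on the lower at an unadjusted p under 0.05.

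**Figure D3:**
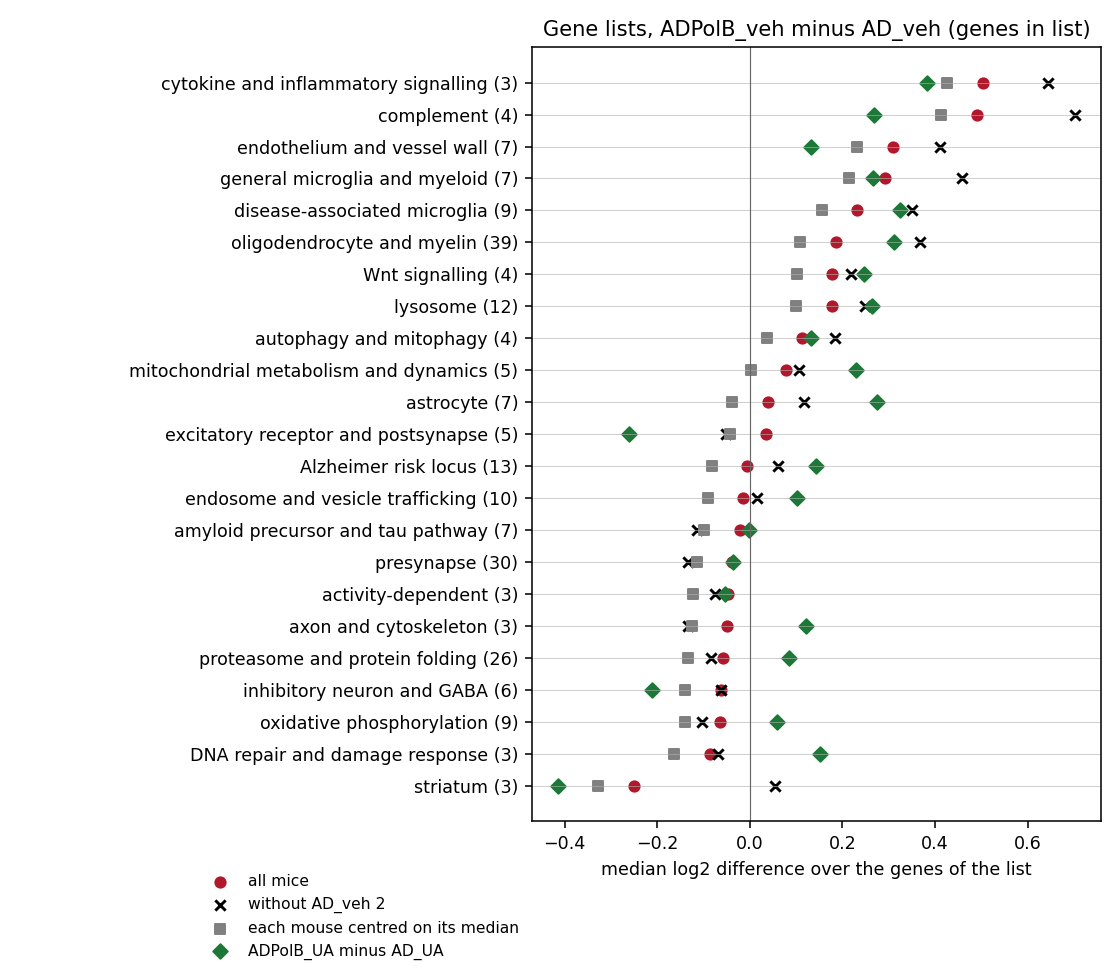
For each of 23 gene lists, with the number of measured genes in brackets, the median log2 difference over its genes is shown for all mice, without AD_veh 2, after each mouse was centred on its median, and for ADPolB_UA minus AD_UA. Complement, at 0.49, and cytokine signalling, at 0.50, lay farthest to the right with all mice, and striatum moved to the other side of 0 without AD_veh 2.

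The sexes were set apart by fitting the mean of every combination of group and sex. No gene passed correction for a difference of the genotype contrast between females and males (0 of 760, smallest adjusted p = 0.419), and 50 were at an unadjusted p under 0.05 (6.58%). Of the 20 genes of the complement, disease-associated microglia and general microglia lists, 16 were among those 50. These genes share the mice and their microglial content, and Pearson's r between the C1q subunits was 0.994 to 0.996. The 20 genes are therefore not independent, and their counts below are descriptions. In females 20 of 20 had the higher mean in ADPolB_veh mice, with a median difference of 1.01, and in males 2 of 20 did, with a median of -0.34. Over all 760 genes, 472 had the higher mean in ADPolB_veh mice in females (median 0.09) and 349 in males (median -0.02). The myelin list was split by sex as well, with the values given above. Without AD_veh 2, a male, 5 of 20 were above 0 in males and the median was -0.08. In that fit 12 of 20 were at an unadjusted p under 0.05, against 26 of all genes (3.42%), and the smallest adjusted p over all genes was 0.998. Without ADPolB_veh 1, also a male, 4 of 20 were above 0 in males and the median was -0.07. Without ADPolB_veh 6, 10 of 20 were at an unadjusted p under 0.05, and 28 of all genes.

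C1qa stood at 10.74, 11.62 and 12.01 in the 3 female ADPolB_veh mice and at 9.23, 9.33, 9.54 and 11.76 in the 4 female AD_veh mice. The female AD_veh 6 was thus near the heterozygous females and far from the other 3 of its own group. In males the levels were 9.10, 10, 10.49 and 10.52 in ADPolB_veh mice and 9.95, 10.01, 10.35 and 11.27 in AD_veh mice, the highest being AD_veh 2. The contrast was 1.49 in females and -0.37 in males (adjusted p = 0.419 for the difference between sexes). Leaving out AD_veh 6, an alternative chosen after the data were seen, left 16 genes past correction, 13 of them in the 3 lists, and C1qa had an adjusted p of 0.00909. Those 16 genes were all higher in females and lower in males. Among them, and named after their values were seen, were Fcer1g, an Fc receptor chain (1.73 in females and -0.67 in males, adjusted p = 0.00186), and Tyrobp, the signalling adaptor of Trem2 (2.14 and -0.42, adjusted p = 0.00791). With all mice, Fcer1g had 1.23 in females and -0.67 in males (adjusted p = 0.419).

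**Figure D4:**
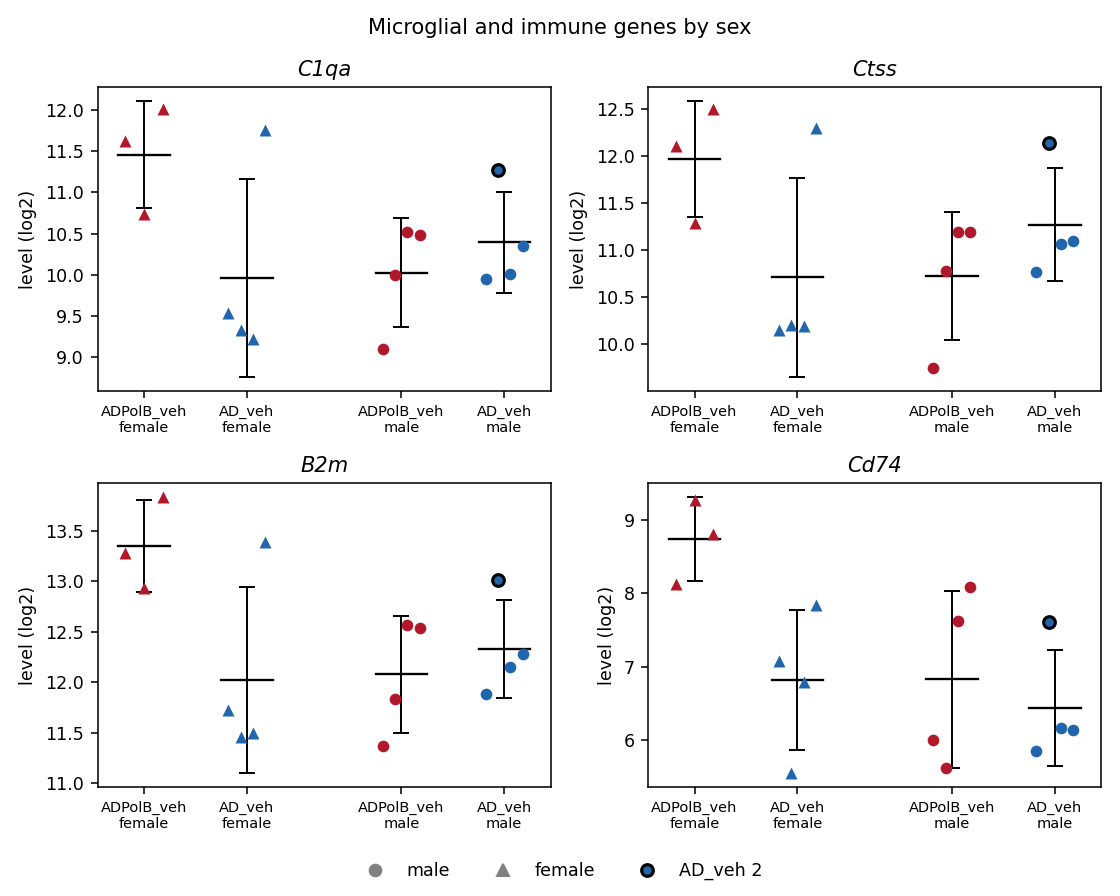
Levels (log2) of C1qa, Ctss, B2m and Cd74 by mouse, females on the left of each panel and males on the right, ADPolB_veh before AD_veh, with the mean and SD as bars. For C1qa, 3 female AD_veh mice lay at 9.23 to 9.54, while AD_veh 6 stood at 11.76 and the female ADPolB_veh mice at 10.74 to 12.01.

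The same genotype contrast in Urolithin A mice used none of these 15 animals. It called no gene (0 of 760), and 96 genes were at an unadjusted p under 0.05 (12.6%), 70 higher (9.21%) and 26 lower (3.42%) in ADPolB_UA mice. Without ADPolB_UA 6, AD_UA 3 and AD_UA 8, the mice with high striatal markers, the count was 53 (6.97%), 23 higher and 30 lower, and still no gene was called. This alternative was chosen after the data were seen. Leaving out 1 of them gave 167 without ADPolB_UA 6, 56 without AD_UA 3 and 68 without AD_UA 8. Of the 33 genes at an unadjusted p under 0.05 in vehicle mice, 26 had the same direction, against 506 of 760 genes (66.6%), and Pearson's r between the differences was 0.53 across genes, which are not independent replicates. Without the 3 mice these were 26 of 33, 495 of 760 (65.1%) and 0.46. Cd74 differed by 1.14 (vehicle 1.12), Enpp2 by 1.08 (vehicle 1.54), Sox9 by 0.40 (vehicle 0.37) and Zfp36l1 by 0.59 (vehicle 0.43). Fam171a1, Trappc4 and Ppp1r2, at -0.36, -0.21 and -0.24 in vehicle mice, were at 0.04, 0.02 and 0.04 under Urolithin A. Without the 3 mice Cd74 differed by 1.07 and Zfp36l1 by 0.43 under Urolithin A, and Fam171a1 by 0.03.

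Whether the contrast differed between vehicle and Urolithin A was tested directly and no gene passed (0 of 760, 29 at an unadjusted p under 0.05, 3.82%, smallest adjusted p = 0.875). The smallest p belonged to Glud1, glutamate dehydrogenase of mitochondria, with a difference of -0.12 in vehicle mice and 0.23 in Urolithin A mice (-0.35 between the contrasts, SE 0.10). Psmg1 was at -0.07 in vehicle mice and 0.20 in Urolithin A mice, and Gabrg1, a GABA receptor subunit, at -0.09 and 0.82, with an adjusted p of 0.875 for each of these 3 genes. Without the 3 mice with high striatal markers 30 genes were at an unadjusted p under 0.05 (3.95%), and the smallest adjusted p was 0.955. Of the lists below 0 in vehicle mice, oxidative phosphorylation was above 0 in 8 of 9 genes (median 0.06), the proteasome and folding list in 22 of 26 (median 0.08) and the DNA repair and damage list in 3 of 3 (median 0.15) under Urolithin A. Axonal (3 of 3, median 0.12), Alzheimer risk (10 of 13, 0.14) and trafficking genes (9 of 10, 0.10) were above 0 too. With all mice, presynaptic genes (10 of 30, median -0.04), GABA-related genes (1 of 6, -0.21) and striatal markers (0 of 3, -0.41) stayed below 0. So did the medians of activity-dependent genes (1 of 3, -0.05) and of the amyloid and tau list (3 of 7, -0.002). For Bcl2 and Bcl2l1 the test of the difference between treatments gave an adjusted p of 0.96 each. Over all genes, 526 of 760 were above 0 under Urolithin A, with a median of 0.10. Myelin genes were above 0 in 39 of 39 (median 0.31) and lysosomal genes in 12 of 12 (median 0.26). The myelin mean level was lowest of its group in AD_UA 3 and AD_UA 8, at 8.73 each, against 9.10 to 9.85 in the other AD_UA mice, and it was 9.04 in ADPolB_UA 6. Without these 3 mice the myelin median was 0.22 and the lysosomal median 0.23, each with all members above 0. Oxidative phosphorylation then had 4 of 9 above 0 and a median of 0, the proteasome and folding list 19 of 26 (median 0.07) and the DNA repair and damage list 3 of 3 (median 0.20). Without the same 3 mice the presynaptic median was -0.05, the activity-dependent median 0 and the amyloid and tau median 0.03. Without AD_UA 8 alone, 17 of 30 presynaptic genes were above 0 (median 0.004).

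**Figure D5:**
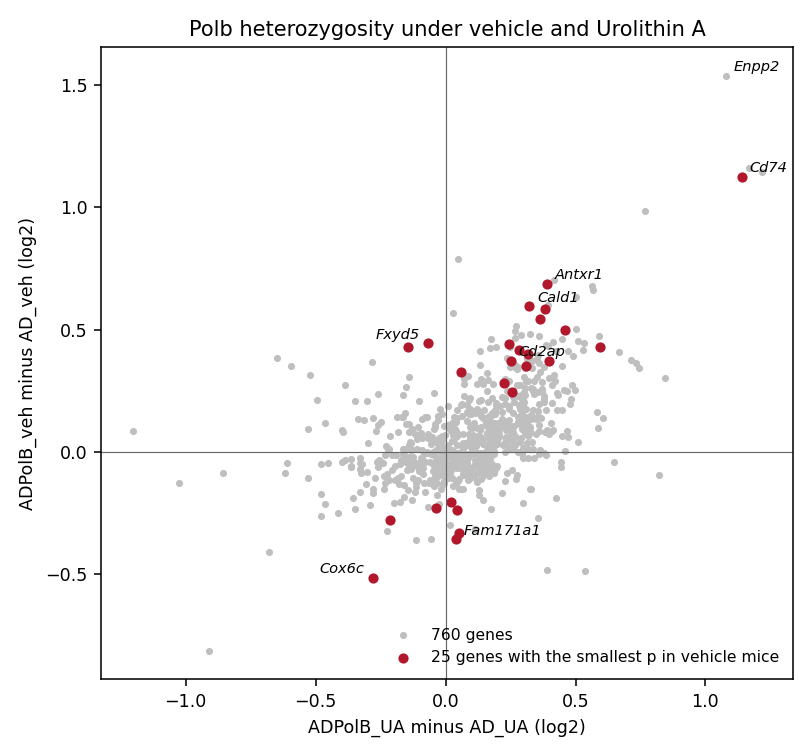
Each point is 1 of 760 genes, with the log2 difference ADPolB_veh minus AD_veh upward and ADPolB_UA minus AD_UA across, and red points are the 25 genes with the smallest p in vehicle mice. Cd74 and Enpp2 were above 1 on both axes, and Fam171a1 lay at -0.36 upward and near 0 across.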

How the data were processed

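Hippocampal RNA was measured on the NanoString nCounter platform, and the authors deposited normalized values in log2 units. The sources used here do not give the normalization reference, background treatment, raw counts or cartridges, so depth is unknown and batches could not be tested. The series text names Rosalind as the submitters' platform. Values were used as deposited, with no filter and no column left unmapped.

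Each gene was fitted with limma 3.58.1 (R 4.3.3) on all 35 mice with group and sex as terms. Tests were two-sided, with Benjamini-Hochberg adjustment over 760 genes and a threshold of 0.05. The fit was tested on simulated data in which genes varied independently and no mouse stood apart. That test therefore does not cover shared variation between genes or a mouse such as AD_veh 2. Nothing says that replicates came from separate litters, so p-values measure the spread between these animals. The animals' numbers did not pair them (correlations of same-numbered mice from -0.55 to 0.76 over 7 numbers, 1 of 7 best with its own number). Of the symbols, 750 were found in the GRCm38.p6 gene table, and promoters are from RefSeq. No 2 columns were copies, since at most 4.21% of genes were equal within 0.005.

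The members and lists were chosen with earlier results of these data known. Genes named are the 25 with the smallest p, the 5 largest increases and decreases, up to 4 of each list with the smallest p, App and Mapt. Fcer1g, Tyrobp and the lists of the closing section were chosen after values were seen. Polb and Ctsz were not analysed here, and a few genes that the rule names, and 1 allele of the transgenic line, are not reported here.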

Additional observations from a re-analysis of the deposited data

Results flagged for a closer look

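For each of the 97 genes reported by the rule, the highest and lowest mouse of each group was set against the spread of its group by Dixon's criterion. Of 194 groups tested, 30 had a mouse set apart, where about 9.7 would be by chance (1 in 20). AD_veh 2 gave 19 of the 30, ADPolB_veh 1 gave 3 and other mice gave 8.

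AD_veh 2 was high for Adora2a (9.85), Pde1b (11.27), Ptpn5 (11.64), Pde1c (8.45), Rgs4 (12.76), Camk4 (11.30), Cd2ap (8.18), Ppp1r2 (11.29), St8sia3 (10), Gnb5 (10.91), Ogfod3 (6.95), Tmem63a (9.75), Gphn (10.03) and Dnajb4 (9.79). These include markers typical of striatal neurons. It was low for Dlgap1 (8.35), Gabbr2 (8.32), Cacng8 (10.13), Stmn2 (10.09) and Ppp3cb (10.76), genes of synapses and axons. Dlgap1, a postsynaptic scaffold protein, differed by 0.24 with all mice and by 0.00 without AD_veh 2.

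ADPolB_veh 1 was low for Trem2 (1.32), Mapt (10.34) and Gja1 (10.89). The other mice set apart were ADPolB_veh 2 for Adora2a (0.98, low) and Gphn (9.84, high), ADPolB_veh 3 for Cldn5 (8.26, low), ADPolB_veh 5 for Bcl2l1 (8.82, low) and ADPolB_veh 7 for Tbc1d9 (10.67, high). In AD_veh it was AD_veh 8 for Cald1 (6.62, low), Atp5a1 (13.46, high) and Trappc2l (10.44, high). The 0.98 of Adora2a in ADPolB_veh 2 was the lowest value of the whole table and occurred once.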

How the results depend on the processing

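In every fit but one, 0 genes were called between ADPolB_veh and AD_veh mice, and the exception was the fit with sample weights (209 called, 313 at an unadjusted p under 0.05). The 33 genes at an unadjusted p under 0.05 numbered 50 after quantile normalization (15 higher, 35 lower), 18 of 570 without the dimmest 25% of genes and 52 with the myelin mean as a covariate. In a fit of only the 15 mice they numbered 36 (28 higher, 8 lower). With the replicate number as a block they numbered 14, though the numbers do not pair the mice and the block changed no call. Leaving out each mouse in turn gave 15 to 114. The genotype-by-sex count was 0 in each such fit but without AD_veh 6, where it was 16, alternatives chosen after the data were seen. Of 2302 values for 97 genes, 2223 kept their direction and side of the threshold, 36 changed sign, and 43 passed the threshold, all of them with sample weights. Of 460 list medians, 458 moved by less than the spread between mice. That spread can exceed the median, so a median could vanish and still be counted there. The myelin median of 0.19 (SD of its level 0.51 in ADPolB_veh and 0.61 in AD_veh mice) was 4.0e-05 with the myelin covariate. With each mouse left out in turn, the Alzheimer risk median changed sign in 8 fits, and astrocyte, activity-dependent and trafficking medians in 3 each. The excitatory and amyloid medians changed sign in 2 each, and the presynaptic and striatal medians in 1 each. The cause of the changes was not tested.

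The sign changes of single genes were these. After centring, Ntrk2 was -0.019 and Aph1a -0.040. After quantile normalization Idh2 was -0.030, Mfn1 -0.049 and Aph1a -0.11. With the myelin covariate Vgf was 0.027, Stmn2 0.052 and Aph1a -0.032. With the replicate block Gabrg1 was 0.07, Vgf 0.02 and Stmn2 0.063. With sample weights Trem2 was 0.071, App 0.035, Ptpn5 0.018, Pde1b 0.037, Gabbr2 -0.20 and Atg14 0.021. Leaving out each mouse in turn gave -1.16 to 0.054 for Adora2a, -0.042 to 0.03 for App, -0.30 to 0.050 for Ptpn5, -0.37 to 0.13 for Pde1b, -0.12 to 0.20 for Gabbr2, -0.071 to 0.21 for Cacng8, -0.19 to 0.056 for Nptx2, -0.087 to 0.013 for Vgf, -0.28 to 0.041 for Stmn2 and -0.024 to 0.11 for Aph1a. With depth unknown, levels near the bottom of the table, such as Trem2 and Cox6c, could not be given a counting error.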

Other observations

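The lists described here were chosen after values were seen. Their counts, also those set beside the share of all genes, are therefore descriptions and no test. Genes linked to the actin cortex and annexins were above 0 in 13 of 13 cases between ADPolB_veh and AD_veh mice (median 0.35, and 0.45 without AD_veh 2), with 2 of 13 at an unadjusted p under 0.05, both higher, against 3.16% of all genes. The median was 0.33 between ADPolB_UA and AD_UA mice. Extracellular matrix and adhesion genes were above 0 in 14 of 17 (median 0.24, and 0.31 without AD_veh 2), among them Lamb2, a laminin chain of basement membranes, with a difference of 0.38 (SE 0.18, adjusted p = 0.873, limma). TGF-beta family genes were above 0 in 7 of 7 (median 0.19), and 4 of 7 after each mouse was centred on its median. Hippo pathway genes were above 0 in 5 of 6 (median 0.10), and 3 of 6 after centring.

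The genes whose levels over the 15 vehicle transgenic mice were most like Fam171a1 were Nrxn3, a presynaptic adhesion protein (Pearson's r = 0.84), Slc25a20, the mitochondrial carnitine carrier (0.68), Prmt1, an arginine methyltransferase (0.66), Ibtk (0.66) and Gtf2h3, a subunit of the repair and transcription factor TFIIH (0.63). Their differences between ADPolB_veh and AD_veh mice were -0.17, -0.09, -0.16, -0.11 and -0.15. The r was taken over both groups together, so the Fam171a1 difference entered the choice, and the shared direction is no separate result. Prmt1 was also among the 33 genes at an unadjusted p under 0.05. Gtf2h3 had levels of 7.26, 7.47 and 7.72 (lowest, median, highest) in ADPolB_veh mice and 7.39, 7.66 and 8.01 in AD_veh mice.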
